A study of Arabidopsis thaliana with 13 samples.

Results

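The change of the wild-type root tip with seedling age was read from dissected root tips of Arabidopsis thaliana Col-0, the unmodified accession, at 10 das and at 4 das. The comparison held every Col-0 array at these ages, 3 arrays at 10 das and 2 at 4 das, which made 5 of the 13 arrays of the series. A single Col-0 array at 6 das served as an intermediate value only. The abbreviation das stands for days after stratification in the sample labels, while the study's text reads it as days after sowing, and the ages are quoted here as labelled. The other 7 arrays came from rRBr at 10 das (3 arrays), 6 das (2 arrays) and 4 das (2 arrays). The rRBr line is a Col-0 transgenic line in which an RNA interference construct against RETINOBLASTOMA RELATED (RBR), driven by the RCH1 promoter, lowers this cell cycle regulator in the root meristem. It stands here for the same interval of age in a second line, and RBR itself was not analysed here. Seedlings of both lines grew vertically in long days on agar with Murashige and Skoog salts and sucrose, and each array was hybridised with RNA of many pooled tips. An Affymetrix ATH1 array measures each transcript with a set of short probes, a probe set. All values are log2 levels, so that a difference of 1 is a 2-fold change, and differences are 10 das minus 4 das.

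The Arabidopsis root tip holds a stem cell niche around the quiescent centre, a group of rarely dividing cells, followed shootward by a zone of division and by a zone in which cells elongate and form root hairs. After germination the root grows on reserves and then on what the shoot supplies, and the tip of the primary root goes on producing all root cell types from the same niche. Its cells carry plastids without a green colour, and in the Brassicaceae they also form ER bodies, rod-shaped compartments of the endoplasmic reticulum filled with beta-glucosidases that serve in defence.

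Array medians lay between 5.96 and 6.06, and no 2 of the 13 arrays held identical values. The deposited probe table assigned 13513 of the 22746 probe sets tested to 1 gene and 503 to several, and 8730 are given by their identifier alone. Among markers of the labelled tissue, division genes of G2 and mitosis lay between 6.42 and 9.22 on the Col-0 arrays, and the lateral root founder cell genes LBD16 and LBD29 stayed between 3.70 and 4.30. Replicate 1 of Col-0 at 10 das stood apart. The root hair expansins EXPA7 and EXPA18, which loosen the walls of hair-forming cells, averaged 8.86, 4.69 and 5.13 on the 3 arrays of 10 das, against 7.41 and 6.18 on the arrays of 4 das and 6.00 at 6 das. Replicate 1 of rRBr at 6 das and at 10 das stood equally high, at 8.89 and 8.80, and these 3 arrays are called below the arrays that stand apart. In Col-0 at 10 das, 813 probe sets had replicate 1 more than 1 unit from the mean of the other replicates, whereas replicates 2 and 3 differed by that much for 55 probe sets and the arrays of 4 das for 182. The median SD of a probe set was 0.138 at 10 das with replicate 1 and 0.0778 without it, and it was 0.0778 at 4 das. The sign of the difference turned for 20.4% of probe sets when replicate 1 was left out, so calls and list medians are given with and without it. Whether the 3 arrays held more differentiated tissue was not tested. In whole tips, a change in the number of cells of one type and a change in the RNA of each cell cannot be told apart.

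Few probe sets passed the test of the change with age, and AGL42, a factor of the quiescent centre, led the rises. Over all probe sets the median difference was 0.01 and the quartiles were −0.07 and 0.09. In limma fitted to all 13 arrays, 22 probe sets passed an adjusted p of 0.05, which is 0.0967% of those tested. Of these, 12 were higher at 10 das (0.0528%) and 10 were lower (0.0440%). The rises ran from 0.66 to 2.90 with a median of 1.46, and the falls from −3.32 to −0.61 with a median of −1.20. Of the 144 probe sets with a difference of more than 1 in size, 14 passed. All 22 had groups that did not overlap, as did 8.42% of all probe sets upward and 6.91% downward. Of the 22, 10 belonged to 1 gene, 6 higher and 4 lower. The counts depended on single arrays and on the samples fitted. Without replicate 1, 2 or 3 of 10 das, 8, 7 and 8 of the 22 still passed, and without replicate 1 or 2 of 4 das, 12 and 3 did. In a fit of the Col-0 arrays alone, 0 were higher and 0 lower, with 967 at an unadjusted p under 0.05. Leaving 6 das out of that fit is the same test, because a single array adds nothing to the estimate of the spread. Both are counted among the 15 alternative settings quoted below. With the replicate number as a block (which may stand for the repeat of the germination), 16 were higher and 22 lower, and 15 of the 22 still passed.

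AGL42, a MADS box transcription factor whose transcript marks the quiescent centre and which is also known as FOREVER YOUNG FLOWER, rose most among the genes with a name. Its level was 7.16, 7.03 and 6.63 at 10 das, against 4.09 and 4.00 at 4 das, with 6.08 on the array of 6 das. All 3 arrays of 10 das, replicate 1 included, stood clear above both arrays of 4 das. The means were 6.94 ± 0.28 (SD, n = 3) at 10 das and 4.05 ± 0.06 (SD, n = 2) at 4 das, a difference of 2.90 (SE 0.23) or 7.44-fold, with an adjusted p of 0.00246 in limma. Without replicate 1 the difference was 2.79 (adjusted p = 0.0143 in limma). It passed under 12 of 15 alternative settings, with adjusted p from 0.000536 to 0.0603 in limma.

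The only other rise of a single gene with a symbol in the annotation used was ATERDJ3B. It is a J-domain co-chaperone that works with the main folding chaperone of the endoplasmic reticulum. It measured 11.69, 11.63 and 11.50 at 10 das, against 10.89 and 11.01 at 4 das and 11.17 at 6 das. The difference was 0.66 (SE 0.09), a 1.58-fold rise with an adjusted p of 0.0383 in limma. Its arrays did not overlap between ages, but without replicate 1 the adjusted p was 0.119, with the replicate block it was 0.0644, and it passed under 3 of 15 alternative settings.

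The remaining rises of single genes carry only a locus number in the annotation used. At3g49160 had levels of 5.72, 6.23 and 5.57 at 10 das, against 3.90 and 3.98 at 4 das, a 3.73-fold rise (adjusted p = 0.0366 in limma). At3g60540 measured 8.53, 8.59 and 8.11 at 10 das, against 7.09 and 7.19 at 4 das, and rose 2.41-fold (adjusted p = 0.0378 in limma). In both, the lowest array of 10 das was well above the highest of 4 das. At5g07340, at 8.82, 9.00 and 8.85 at 10 das, against 8.04 on both arrays of 4 das, rose by 0.85 with an adjusted p of 0.0383 in limma. At4g29520 stood at 10.61, 10.46 and 10.33 at 10 das, against 9.76 and 9.70 at 4 das, and rose 1.67-fold (adjusted p = 0.0447 in limma). Without replicate 1, none of the 4 passed, with adjusted p between 0.0900 and 0.119 in limma and differences of 0.67 to 1.96. Of 15 alternative settings, At3g49160 passed under 7, At3g60540 and At5g07340 under 6 each and At4g29520 under 2. With the replicate block, At3g60540 and At4g29520 did not pass (adjusted p = 0.0629 and 0.0676 in limma).

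The largest fall was in At2g39980, for which the annotation gives no name. Its level was 5.89, 6.22 and 5.46 at 10 das, against 8.80 and 9.55 at 4 das, with 7.74 at 6 das. The ages did not overlap, and the difference of −3.32 (SE 0.33) put the level at 4 das 9.97-fold above that at 10 das, with an adjusted p of 0.00931 in limma. At3g56360 measured 5.73, 6.16 and 6.46 at 10 das, against 8.40 and 8.86 at 4 das, a difference of −2.51 (SE 0.31, adjusted p = 0.0306 in limma). At2g34930 measured 5.80, 5.87 and 5.68 at 10 das, against 7.12 and 7.19 at 4 das and 6.31 at 6 das. Replicates lay close together at either age, and the difference of −1.37 (SE 0.09) had an adjusted p of 0.00128 in limma. At1g74840, at 9.75, 9.77 and 9.76 at 10 das, against 10.27 and 10.47 at 4 das, fell by 0.61 (adjusted p = 0.0378 in limma). Without replicate 1, At3g56360 (adjusted p = 0.0900 in limma) and At1g74840 (adjusted p = 0.119 in limma) did not pass, and At1g74840 did not with the replicate block either (adjusted p = 0.0629 in limma). Of 15 alternative settings, At2g34930 passed under 13, At2g39980 under 12, At3g56360 under 7 and At1g74840 under 3.

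Of the 12 probe sets without a gene, 6 rose and 6 fell. Probe set 254098_at measured 11.89, 11.88 and 11.86 at 10 das, against 9.39 and 8.97 at 4 das, a difference of 2.70. Probe set 251109_at had levels of 11.05, 10.95 and 10.74 at 10 das, against 8.48 and 8.75 at 4 das, a difference of 2.30. Neither overlapped between ages, and both passed without replicate 1 as well. Probe set 263539_at, at 4.65, 4.47 and 4.79 at 10 das, against 6.70 and 7.17 at 4 das, differed by −2.30. For 252374_at, with 8.26, 8.38 and 8.32 at 10 das, against 9.45 and 9.71 at 4 das, the difference was −1.26. Without replicate 1, neither fall passed, with an adjusted p of 0.0900 for 263539_at and 0.0861 for 252374_at in limma.

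**Figure D1:**
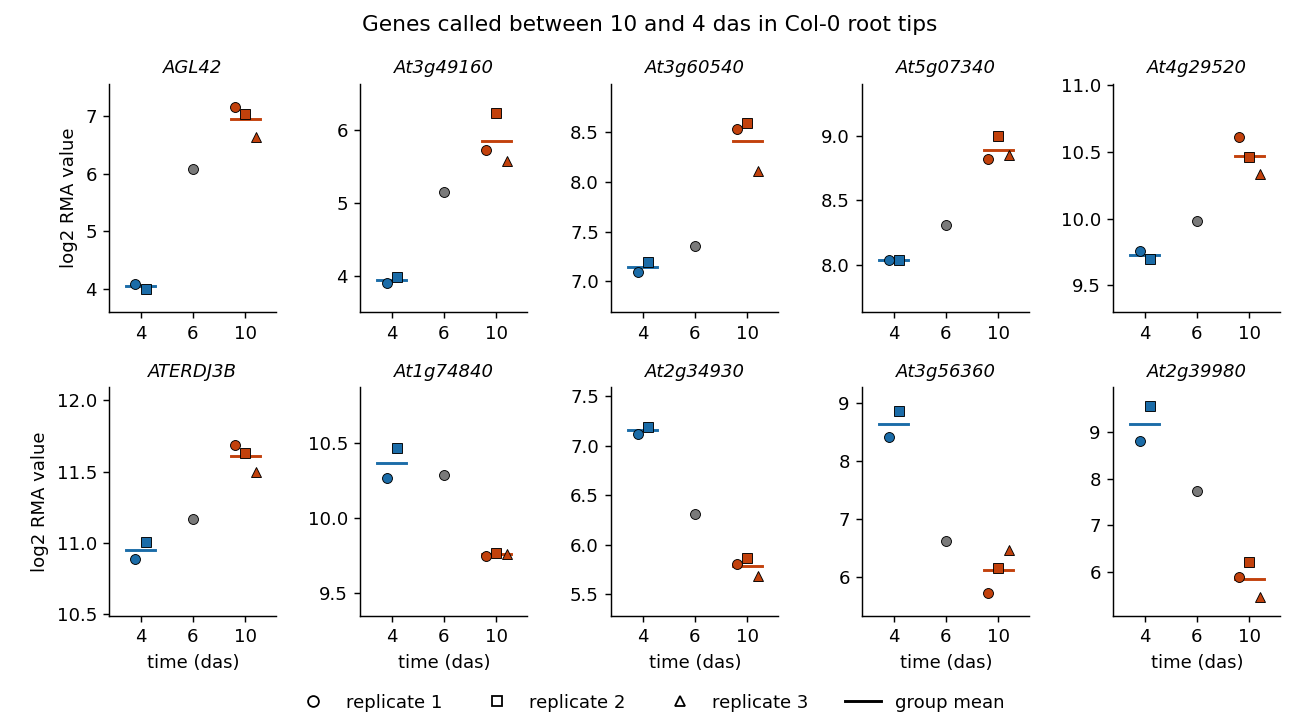
Levels (log2) of the 10 single-gene probe sets called between 10 das and 4 das, by age in das, with a point for each Col-0 array (circle, square and triangle for replicates 1, 2 and 3) and a bar at each group mean. In every panel the 3 arrays of 10 das lie on one side of the 2 arrays of 4 das, by the widest margin in At2g39980.

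Without replicate 1 of 10 das, 9 probe sets passed in limma (0.0396%), 5 higher (0.0220%) and 4 lower (0.0176%). Of these, 8 were among the 22, 5 higher and 3 lower. All 22 kept their sign, which was fixed beforehand because their groups did not overlap. AGL42, 251109_at and 254098_at were among the rises that passed in both fits, and At2g34930 and At2g39980 among the falls, with adjusted p of 0.00728 and 0.0495. The ninth was At1g14240, at 7.26, 6.69 and 6.54 at 10 das, against 7.78 and 7.71 at 4 das. In this gene replicate 1 lay nearest to 4 das, and its difference was −0.92 with that array and −1.13 without it (adjusted p = 0.0495 in limma). Groups that did not overlap made up 24.9% of all probe sets upward and 17.3% downward in this smaller comparison.

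Leaving out all 3 arrays that stand apart gave 70 probe sets (0.308%), 18 higher (0.0791%) and 52 lower (0.229%). The 70 included 16 of the 22. Replicate 1 of 10 das lay above both other arrays of its age in 40 of the 52 falls and in 33.7% of all probe sets, and below both in 9 of the 18 rises and in 43.2% of all. These probe sets were called in a fit that left replicate 1 out, so the counts are a description. Of the 34 probe sets of a single gene, 7 were higher and 27 lower. At5g04120 is an example: its level was 8.82, 6.42 and 5.69 at 10 das, against 9.02 and 8.94 at 4 das, and the difference without the 3 arrays was −2.93 (adjusted p = 0.00384 in limma). APS4, a sulphate-activating enzyme, measured 7.09, 6.90 and 6.87 at 10 das, against 7.77 and 8.06 at 4 das, and fell by 1.03 in this fit. AZG1, a purine transporter, measured 6.82, 6.15 and 6.51 at 10 das, against 7.17 and 7.37 at 4 das, and fell by 0.94. Among the rises was ATG8B, of the family of proteins that build autophagosomes, at 5.56, 6.27 and 6.02 at 10 das, against 5.25 and 5.18 at 4 das. It rose by 0.93 (adjusted p = 0.0233 in limma). None of these 4 genes passed in the fit of all arrays, where their adjusted p lay between 0.474 and 1.

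The array of 6 das fell between the means of 10 das and 4 das for 21 of the 22 called probe sets, and for 29.3% of all probe sets. The called ones have means at least 0.61 apart, a gap far wider than in most probe sets. An array of any age would fall inside it more often, so the contrast carries no weight. For the rises it had covered 16.5% to 94.9% of the way from the mean of 4 das to that of 10 das, with a median of 62.6%. At3g60540 had the lowest share, 254098_at was at 91.6% and AGL42 at 70.3%. For the falls the share ran from −12.5% to 80.4% with a median of 45.3%, where At3g56360 had the highest and At1g74840 was at 13.1%. With 1 array at 6 das these positions carry no error.

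In a list of genes of protein folding and quality control in the endoplasmic reticulum, ATERDJ3B was the only member called. The list was defined after the values were seen and need not hold every such gene, so its counts are a description. Of 14 probe sets for 13 genes, 9 were above 0 (64.3%, beside 54.8% of all probe sets). In 8 the groups did not overlap, all higher (57.1%, beside 8.42% of all). Without replicate 1, 8 did not overlap and were higher and 3 were lower, beside 24.9% and 17.3% of all. At an unadjusted p of 0.05 in limma, 7 were higher and 0 lower, against 470 (2.07%) and 578 (2.54%) of all probe sets. Without replicate 1, 4 were higher and 0 lower, against 670 and 699 of all. The list's median difference was 0.31, and 0.21 without replicate 1, against 0.01 and 0.03 over all probe sets. The mean level of the list was 8.94, 8.81 and 8.74 at 10 das, against 8.56 and 8.64 at 4 das and 8.68 at 6 das. Replicate 1 was the highest of the 3 arrays of 10 das, but the other arrays were also above both of 4 das.

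Within this list, the co-chaperone ATERDJ2B measured 8.07, 7.97 and 7.84 at 10 das, against 7.46 and 7.35 at 4 das, a difference of 0.56. OS9, a lectin that selects misfolded glycoproteins for degradation, measured 9.01, 9.00 and 8.88 at 10 das, against 8.53 and 8.64 at 4 das, and differed by 0.38 (adjusted p = 0.211 in limma). Neither gene overlapped between ages. The derlin DER2.1, of the export channel for misfolded proteins, differed by 0.62, GPT, which starts the assembly of N-glycans, by 0.48, and the calreticulin CRT1b by 0.27. The transcription factors of the unfolded protein response went apart, with BZIP60 at 0.35 and BZIP28 at −0.22. DER1 gave 0.34 and −0.07 on its 2 probe sets. UBC32, a ubiquitin-conjugating enzyme of the same degradation pathway, was at 0.02, PDIL5-1, of the protein disulphide isomerase family, at −0.02, and ATERDJ2A at −0.03.

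Nuclear genes of photosynthesis were low in these tips but higher at 10 das in most cases. This list too was defined after the values were seen, and its counts are a description. Of 27 probe sets, 14 had a mean level below 5, 25 were above 0 and 2 below, beside 54.8% above and 45.0% below of all probe sets. None was called in limma (0 higher and 0 lower). At an unadjusted p of 0.05 in limma, 10 were higher and 0 lower, beside 2.07% and 2.54% of all probe sets. The median difference was 0.19, and 0.20 without replicate 1. The mean level of the list was 5.67, 5.69 and 5.48 at 10 das, against 5.28 and 5.27 at 4 das, and 5.44 at 6 das. All 3 arrays of 10 das were above both of 4 das, whether or not root hair transcripts were high.

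At1g74470, a geranylgeranyl reductase that makes the side chain of chlorophyll, measured 7.71, 7.72 and 7.05 at 10 das, against 6.01 and 5.58 at 4 das and 6.21 at 6 das. The difference of 1.70 (SE 0.29) had an adjusted p of 0.114 in limma. ATPC1, the gamma subunit of the chloroplast ATP synthase, measured 7.01, 6.92 and 6.37 at 10 das, against 5.81 and 5.80 at 4 das (difference 0.96). The ages did not overlap in either gene. LHCB4.1, an antenna protein of photosystem II, measured 6.63, 6.34 and 6.03 at 10 das, against 5.32 and 5.58 at 4 das (difference 0.88). RCA, the activase of rubisco, measured 5.53, 5.24 and 4.96 at 10 das, against 4.39 and 4.41 at 4 das (difference 0.84). Without replicate 1 the differences were 1.59 in At1g74470, 0.84 in ATPC1, 0.74 in LHCB4.1 and 0.70 in RCA. With the replicate block ATPC1 passed (adjusted p = 0.00968 in limma). The thylakoid curvature protein At4g01150 (CURT1A) differed by 0.53 and the photosystem I subunit PSAN by 0.48. LHCB4.2, a close relative of LHCB4.1, differed by 0.00.

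The genes encoded by the plastid genome, also listed after the values were seen, did not share that direction. Of 69 probe sets, 61 were below 0 (beside 45.0% of all probe sets) and 8 above, with a median of −0.22. None was called in limma, and none passed an unadjusted p of 0.05. In 6 the groups did not overlap, all lower at 10 das, beside 6.91% of all probe sets. Without replicate 1 the median was −0.23, 45 were below 0, and 24 had groups that did not overlap and were lower (beside 17.3% of all). In that fit 8 were lower at an unadjusted p of 0.05 in limma, beside 699 of all 22746 probe sets. Mean levels of the list were 7.57, 7.55 and 7.47 at 10 das, against 7.65 and 7.90 at 4 das and 7.72 at 6 das. The arrays of 4 das were thus farther from each other than those of 10 das.

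Single plastid genes could differ more between replicates than between ages. The ATP synthase subunit atpA measured 10.60, 8.85 and 8.94 at 10 das, against 10.43 and 9.95 at 4 das. The carboxylase subunit accD measured 9.39, 7.46 and 7.22 at 10 das, against 9.00 and 8.33 at 4 das. In both, replicate 1 was the highest of the 5 arrays. The plastid RNA polymerase subunit rpoC1, at 8.77, 8.10 and 8.46 at 10 das, against 9.00 and 9.19 at 4 das, did not overlap between ages.

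In a list of ER body genes and jacalin-like lectins (JAL), 6 of 7 were lower at 10 das. Those 6 had groups that did not overlap, beside 6.91% of all probe sets. The list was defined after the values were seen, so these counts are a description and no test of the list. None was called in limma (0 higher and 0 lower), while 4 were lower and 0 higher at an unadjusted p of 0.05, beside 2.54% and 2.07% of all. The median difference was −0.49, and −0.53 without replicate 1. The mean level of the list was 9.00, 9.07 and 8.93 at 10 das, against 9.43 and 9.64 at 4 das and 9.20 at 6 das. Replicate 1 was the middle array of its age.

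NAI1, the bHLH factor needed to form ER bodies, measured 7.98, 8.17 and 7.90 at 10 das, against 8.71 and 9.15 at 4 das, with 8.38 at 6 das. Its difference of −0.91 (SE 0.14) had an adjusted p of 0.0743 in limma, and of 0.0238 with the replicate block. NAI2, a component of the bodies, measured 11.78, 11.68 and 11.63 at 10 das, against 12.09 and 12.28 at 4 das, a difference of −0.49. The array of 6 das lay between the ages in both genes. PYK10, the beta-glucosidase stored in ER bodies of roots, was at 12.95, 12.80 and 12.81 at 10 das, against 13.12 and 13.23 at 4 das, a difference of −0.32. The jacalin-like lectin JAL33 measured 9.59, 10.19 and 9.61 at 10 das, against 10.49 and 11.12 at 4 das, a difference of −1.01. JAL22 was low, at 4.35, 4.27 and 4.36 at 10 das, against 5.19 and 5.17 at 4 das. It passed without the 3 arrays that stand apart (difference −0.87, adjusted p = 0.0223 in limma). JAL34 differed by −0.26 and JAL23 by 0.11. Without replicate 1 the differences were −0.90 in NAI1, −0.53 in NAI2, −0.37 in PYK10 and −0.91 in JAL33.

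**Figure D2:**
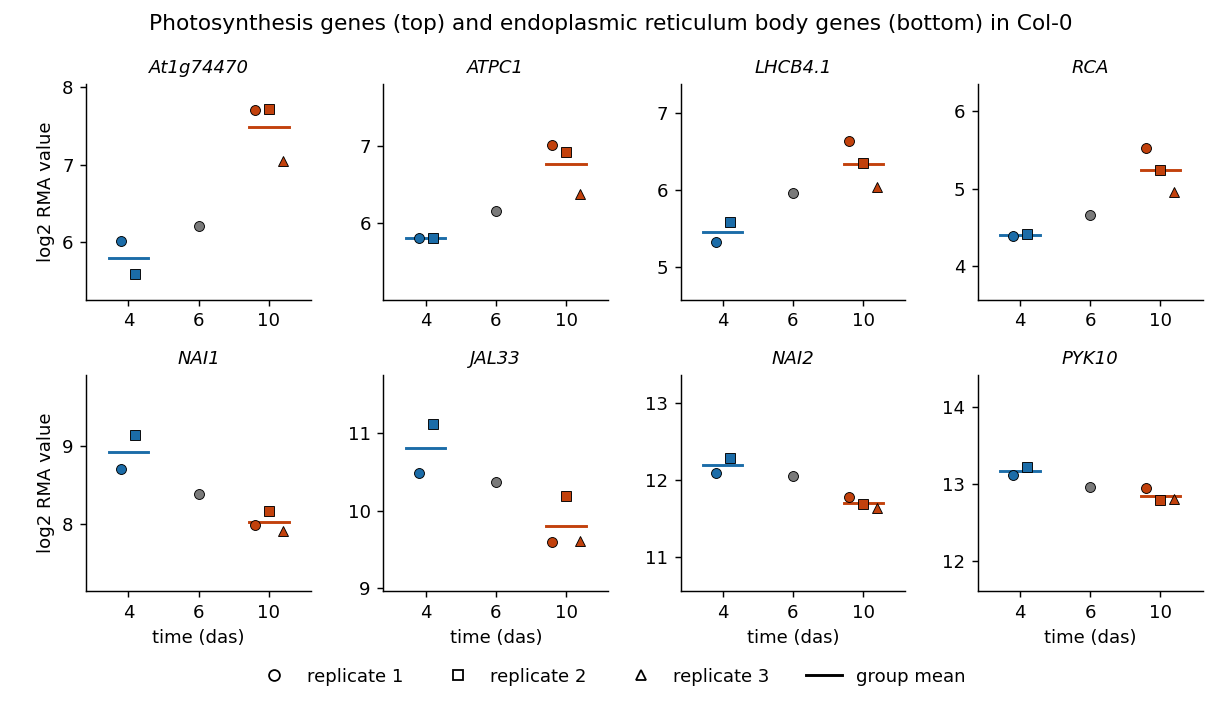
Levels (log2) of 4 nuclear genes of photosynthesis (top) and 4 genes of the ER body list (bottom) by age in das. Each Col-0 array has a point and each group mean a bar. At1g74470, ATPC1, LHCB4.1 and RCA were above both arrays of 4 das on every array of 10 das, and NAI1, JAL33, NAI2 and PYK10 were below them.

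Expansins, which loosen cell walls during growth, were mostly lower at 10 das. Of 18 probe sets, 15 were below 0 (beside 45.0% of all probe sets) and 3 above. In 9 the groups did not overlap, all lower (beside 6.91% of all). None was called in limma. At an unadjusted p of 0.05 in limma, 5 were lower and 0 higher, beside 2.54% and 2.07% of all. With the replicate block EXPA15 passed (adjusted p = 0.0291 in limma). The median difference was −0.29 with replicate 1 and −0.37 without it, where 17 were below 0 and 12 did not overlap (beside 17.3% of all). Replicate 1 of 10 das was the highest Col-0 array for 6 of the 18, and for 23.5% of all probe sets. The list averaged 6.69, 6.02 and 6.23 at 10 das, against 6.69 and 6.65 at 4 das, so that replicate 1 alone stood level with 4 das.

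The size of the difference in the root hair expansins depended on that array. EXPA7 measured 8.83, 4.37 and 5.11 at 10 das, against 7.65 and 6.32 at 4 das, a difference of −0.88 with replicate 1 and −2.25 without it. EXPA18 measured 8.88, 5.00 and 5.14 at 10 das, against 7.16 and 6.03 at 4 das, with differences of −0.26 and −1.53. In both genes replicate 1 was the highest array and replicates 2 and 3 the lowest. The xyloglucan-modifying enzyme XTH18 had the same order at 10.47, 8.05 and 8.27 at 10 das, against 9.85 and 8.67 at 4 das. The hydroxyproline-rich protein gene HRGP1, at 8.75, 6.20 and 6.99 at 10 das, against 8.01 and 7.41 at 4 das, did so too. None of the 4 passed with or without replicate 1. The expansins EXPB3 and EXPA15 did not have this order. EXPB3 measured 6.59, 6.49 and 6.81 at 10 das, against 7.15 and 7.37 at 4 das, a difference of −0.63, and EXPA15 measured 9.21, 9.44 and 9.83 at 10 das, against 10.04 and 10.43 at 4 das, a difference of −0.74.

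The listed genes of G2 and mitosis, DNA replication and histones passed no test, and the sign of the list medians turned on replicate 1. The lists held 16 probe sets and need not hold every such gene. The 6 probe sets of G2 phase and mitosis were all below 0 with a median of −0.14, but the median was 0.07 without replicate 1. The 4 of DNA replication had medians of −0.09 and 0.07, and the 6 histone probe sets −0.06 and 0.02. None of the 16 was called in limma or passed an unadjusted p of 0.05. Replicate 1 of 10 das was the lowest of the 6 Col-0 arrays for 15 of the 16, and for 29.2% of all probe sets. Mean levels of the G2 and mitosis list were 7.55, 8.26 and 8.21 at 10 das, against 8.17 and 8.14 at 4 das. The aurora kinase AUR3 measured 6.58, 7.49 and 7.39 at 10 das, against 7.22 and 7.18 at 4 das. KINESIN-12B, a motor of the division plane, measured 6.42, 7.31 and 7.14 at 10 das, against 7.15 and 7.19 at 4 das. Replicates 2 and 3 stood near 4 das in both genes, and replicate 1 stood below. The array with high root hair transcripts was thus also the one with low division transcripts, and the part of this in the comparisons above was not tested beyond leaving the array out.

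**Figure D3:**
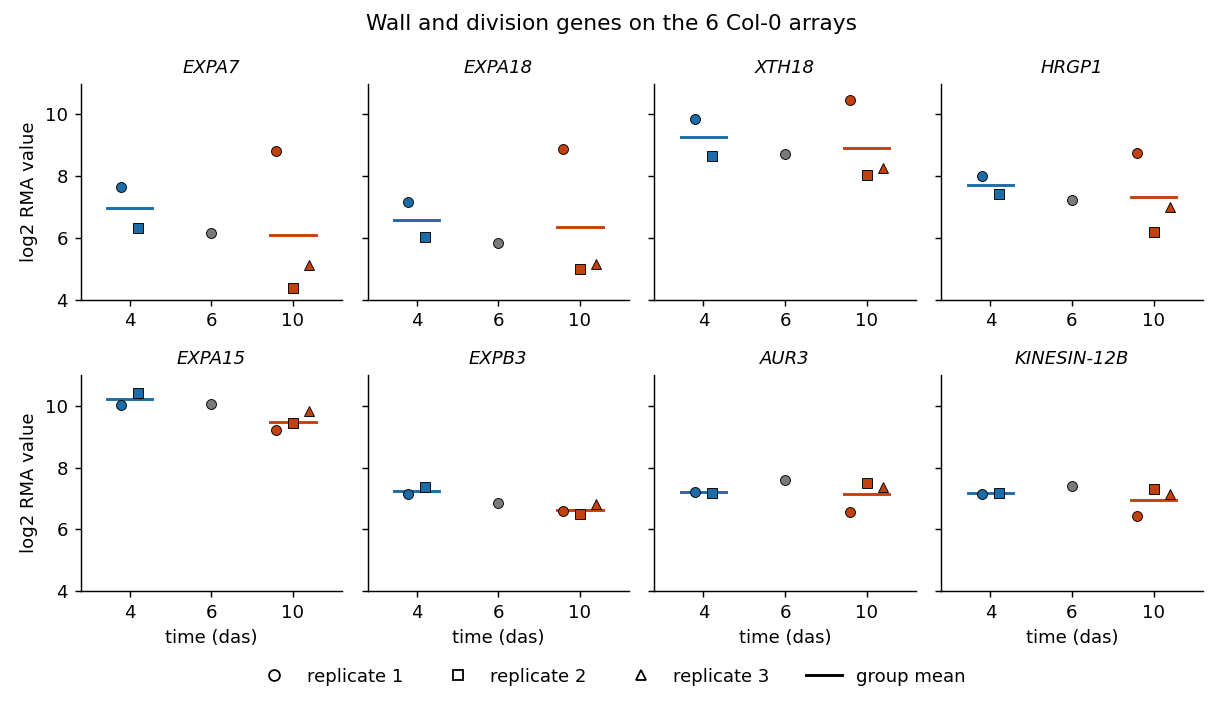
Levels (log2) of 6 wall genes and 2 division genes by age in das, with a point for each Col-0 array (circles are replicate 1) and a bar at each group mean. Replicate 1 of 10 das is the highest for EXPA7, EXPA18, XTH18 and HRGP1 and the lowest for AUR3 and KINESIN-12B, while EXPB3 and EXPA15 do not overlap between ages.

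In the list of stem cell niche and meristem genes, which held 7 probe sets, AGL42 was the only one called. Many known regulators of the niche are not in this list and were not analysed here. UPB1, a bHLH factor at the transition to elongation, was at 8.89, 8.40 and 8.27 at 10 das, against 9.19 and 8.63 at 4 das (difference −0.39). BBM, an AP2 factor of the niche, measured 5.34, 6.31 and 6.25 at 10 das, against 5.93 and 6.24 at 4 das (difference −0.12). Both genes overlapped between ages. The zinc finger factor JKD, at 6.53 to 6.54 at 10 das and 6.56 to 6.61 at 4 das, differed by −0.05. PHV, a class III homeodomain factor, differed by 0.26, the bHLH factor LHW by −0.02 and the peptide gene CLE40 by −0.07. None of these 6 passed an unadjusted p of 0.05 in limma. Across 42 probe sets of AGAMOUS-like MADS box factors, a list defined after the values were seen, AGL42 was the only one called. Of these, 34 had a mean level below 5, and the median difference was 0.04.

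In flavonoid synthesis, 6 of 7 probe sets were above 0 (beside 54.8% of all), with a median of 0.32 and of 0.36 without replicate 1. None was called in limma, and 2 were higher at an unadjusted p of 0.05 (beside 2.07% of all). UGT78D2, a glycosyltransferase of flavonols and anthocyanins, measured 8.74, 9.04 and 9.37 at 10 das, against 8.12 on both arrays of 4 das, a difference of 0.93. CHIL, a chalcone isomerase-like protein, measured 9.61, 9.67 and 10.24 at 10 das, against 8.65 and 9.05 at 4 das, a difference of 0.99. Neither gene overlapped between ages, and the array of 6 das was below both of 4 das, at 7.73 for UGT78D2 and 8.58 for CHIL.

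The genes CML23, At2g19970 and At3g47380 came close to the threshold. CML23, a calmodulin-like calcium sensor, measured 6.57, 7.01 and 6.65 at 10 das, against 7.98 and 8.47 at 4 das, a difference of −1.48 with an adjusted p of 0.0593 in limma, and of 0.00301 with the replicate block. The unnamed At2g19970 measured 4.34, 4.85 and 4.61 at 10 das, against 6.02 and 7.02 at 4 das (difference −1.92, adjusted p = 0.0574 in limma). The ages did not overlap in either gene. At3g47380, at 7.06, 7.09 and 7.30 at 10 das, against 8.21 and 8.43 at 4 das, differed by −1.17 (adjusted p = 0.0577 in limma, and 0.00592 with the replicate block). The next 2 genes are named as list members and were not called in limma. LPR1, a multicopper oxidase of root phosphate sensing, measured 5.24, 5.48 and 5.61 at 10 das, against 4.69 on both arrays of 4 das, a difference of 0.75. ARR15, a cytokinin response regulator with a low mean level (below 5), was at 4.61 to 4.73 at 10 das and at 4.98 to 5.32 at 4 das, a difference of −0.47.

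**Figure D4:**
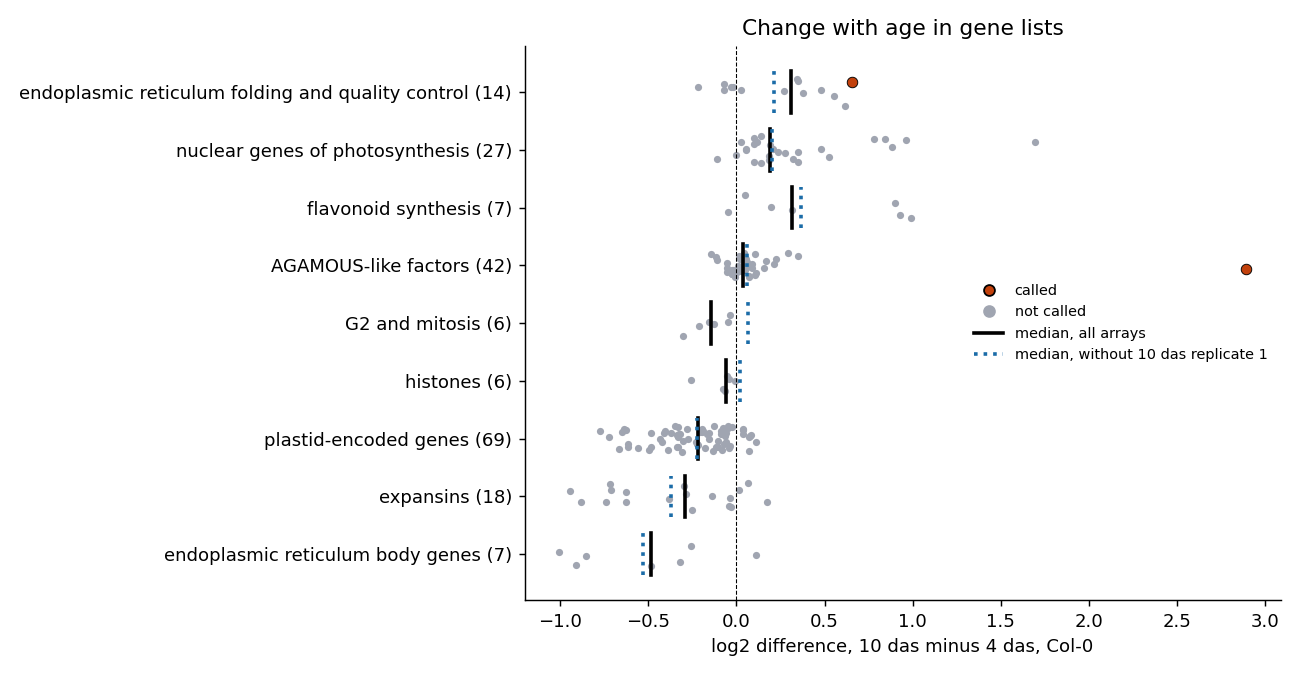
Difference of 10 das minus 4 das (log2) for the probe sets of selected gene lists, named on the y axis with their number of probe sets, with a grey point for each probe set, a red point where it was called, a solid bar at the median and a dotted bar at the median without replicate 1 of 10 das. The medians of the lists plotted run from −0.49 in the ER body list to 0.32 in flavonoid synthesis, against 0.01 over all probe sets.

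The same interval in rRBr was measured on other arrays. Of the 22 probe sets called in Col-0, 20 had the same direction in rRBr, all 12 rises and 8 of 10 falls, beside 53.1% of all probe sets. The count was 21 without replicate 1 of rRBr at 10 das. The 22 differed by at least 0.61 in Col-0, far more than most probe sets, so the share over all probe sets is not a like comparison. All 22 differences were smaller in size in rRBr, which carries no weight because the probe sets were chosen by their change in Col-0. AGL42 measured 6.76, 6.22 and 6.20 in rRBr at 10 das, against 3.80 and 4.42 in rRBr at 4 das, a difference of 2.28 (adjusted p = 0.0153 in limma). It was 1 of 3 of the 22 that were also called in rRBr, where 17 probe sets were called in all.

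ATERDJ3B differed by 0.42 in rRBr and At1g74840 by −0.56, neither of them called there. At2g39980 measured 6.71, 6.12 and 6.47 in rRBr at 10 das, against 8.20 and 7.52 in rRBr at 4 das, a difference of −1.43. Its levels at 10 das were near those of Col-0, and at 4 das they were below both Col-0 arrays. The nuclear genes of photosynthesis had a median of 0.08 in rRBr, with 20 of 27 above 0, and the plastid-encoded genes a median of 0.12, with 46 of 69 above 0. Expansins had a median of −0.03 in rRBr, with 8 above and 10 below 0. For flavonoid synthesis it was 0.01, with 4 above and 3 below, and for the ER body list −0.19, with 3 above and 4 below. The list of folding in the endoplasmic reticulum had 0.18, with 11 above and 3 below. Over all probe sets the median in rRBr was −0.02.

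Tested as a difference of differences, the change with age in Col-0 minus that in rRBr passed for 1 probe set in limma (0.00440%), with 695 at an unadjusted p under 0.05. This was At2g34930. It measured 6.73, 6.50 and 6.63 in rRBr at 10 das, against 6.23 and 6.25 in rRBr at 4 das. At 4 das both rRBr arrays were below both Col-0 arrays, and at 10 das all rRBr arrays were above those of Col-0. Its change was −1.37 in Col-0 and 0.38 (SE 0.09, adjusted p = 0.329) in rRBr, and the difference of −1.75 (SE 0.13) had an adjusted p of 0.00452 in limma. For AGL42 the difference of the changes was 0.61 (SE 0.33, adjusted p of 1 in limma).

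**Figure D5:**
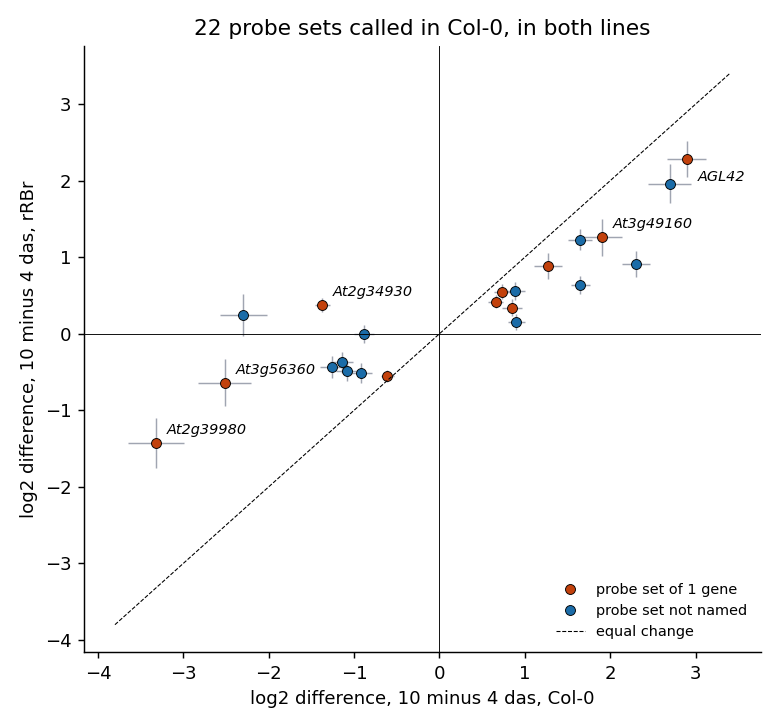
Difference of 10 das minus 4 das (log2) in Col-0 (x axis) against the same in rRBr (y axis), with a point for each of the 22 probe sets called in Col-0 error bars of 1 SE, colours for probe sets with and without a gene, and the line of equality. Of the 22, 20 lie in the quadrants of equal sign, and At2g34930 lies at −1.37 in Col-0 and 0.38 in rRBr.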

How the data were processed

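RNA of dissected Col-0 and rRBr root tips was hybridised to Affymetrix ATH1 arrays. The authors made the deposited log2 values by RMA (affy, per the labels), that is background correction, quantile normalization between arrays and a summary per probe set, so each level depends on all arrays. Of 22810 probe sets, 64 controls were left out and no low level was filtered. Gene names came from the platform's probe table, and 13436 of the 13513 single genes matched the RefSeq annotation of TAIR10.1. In limma 3.58.1 (R 4.3.3), lmFit and eBayes were fitted to 6 groups of line and age over all 13 arrays, with Benjamini-Hochberg adjustment over 22746 probe sets and a threshold of 0.05. The fit was tested on simulated data. The fit was repeated without replicate 1 of Col-0 at 10 das, with other variance, weight, scaling and filter settings, and without each Col-0 array of 10 das and 4 das (and each rRBr array of these ages for the difference of changes). Differences of 3 against 2 arrays limit the precision. The labels name no separate cultures per array, while the protocol has germinations repeated, so p-values measure the spread between these samples. Both lines and all ages were germinated together in each repeat, but the labels do not say that a replicate number marks a repeat. Same-numbered arrays of 10 das and 4 das deviated together at r = 0.46 for number 1 and 0.42 for number 2, where the 2 arrays of 4 das mirror each other. Replicate 3 of 10 das and replicate 2 of 4 das, which share no number, did so at r = 0.35. Deviations within an age balance out, so these values are not independent and do not show pairing by number. A fit with the number as a block is given for some of the genes whose call it changed.

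Single genes named were the largest called rises and falls, then those with the smallest p, and up to 4 genes per list. STZ and SIS were picked after their values were seen, as were the genes of the fit without 3 arrays and list members beyond those 4. The comparison, its members and the 27 gene lists and 15 families were chosen with earlier results of these data known, and 8 further lists (among them the endoplasmic reticulum, photosynthesis, plastid, ER body and AGAMOUS-like lists) were defined after the values were seen. Of 853 list entries, 39 had names the reference did not give and 90 had a probe set of their own. Other markers were not analysed here. The authors' platform annotation can be old.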

Additional observations from a re-analysis of the deposited data

Results flagged for a closer look

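The change of At2g34930 with age differed between the lines by the test of the difference itself. Its change in Col-0 minus its change in rRBr was −1.75, with the level lower at 10 das on all 3 Col-0 arrays, and higher at 10 das on all 3 rRBr arrays, than on the arrays of 4 das of the same line. In limma, the call was lost when either array of 4 das of Col-0 or of rRBr was left out. Groups of 3 and 2 arrays were too small for a search for outlying samples.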

How the results depend on the processing

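In limma, all 22 called probe sets kept their direction under every alternative run. Their groups did not overlap, so leaving out or weighting arrays could not turn a sign, and this count carries no weight. Against 12 higher and 10 lower in the fit of all arrays, trend and robust variance gave 18 lower, array weights 31 and 96, an adjusted p under 0.01 with a fold change of at least 1.4 gave 5 and 2, and leaving out the 3 arrays that stand apart, a choice made with those arrays known, 52 lower. Leaving out each Col-0 array of 10 das or 4 das gave 2 to 8 higher and 1 to 16 lower. Without replicate 2 of 4 das, 3 of the 22 still passed, and the remaining array of 4 das is then assumed to vary like the other groups. Fitted to Col-0 arrays only, 0 were higher and 0 lower (967 at an unadjusted p under 0.05). The fit of Col-0 at 4 and 10 das only is the same test and gave the same counts. The cause of these shifts was not tested. Over all alternatives the difference ran from 2.69 to 3.05 for AGL42 and from −3.69 to −2.94 for At2g39980.

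Without replicate 1 of 10 das (5 higher and 4 lower), trend and robust variance gave 8 and 9, array weights 18 and 35, the stricter threshold 2 and 1, a second quantile normalization 1 lower, the fit without the 3 arrays 18 and 52, and Col-0 arrays only, or Col-0 at 4 and 10 das only, 11 and 15. Leaving out a further array gave 0 to 1 higher and 0 to 1 lower. For the change in Col-0 minus that in rRBr (1 probe set), array weights gave 25, quantile normalization 3 and the fit without the 3 arrays 4, and leaving out single arrays 0 to 1.

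With the replicate number as a block, 16 were higher and 22 lower, and 15 of the 22 still passed. NAI1, ATPC1, EXPA15, CML23 and At3g47380 were among the genes that passed with it and not without it. The promoter description planned was not run. The small groups, 3 arrays against 2, limit what could be called.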

Other observations

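The zinc finger repressor STZ measured 4.73, 4.89 and 5.09 at 10 das, against 5.72 and 6.68 at 4 das, with 6.99 at 6 das. The gene SIS measured 7.26, 7.76 and 7.37 at 10 das, against 7.95 and 9.16 at 4 das, with 9.18 at 6 das. The groups of 10 das and 4 das did not overlap in either gene.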
